A study of Mus musculus with 3 samples.

Results

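The genes described here are 35 chromatin remodeler genes: the subunits of the BAF and PBAF complexes, the ISWI ATPases and their partners, the CHD proteins and the INO80 family ATPases. They were chosen by name, as the genes whose symbol is the single symbol of a probe set, and each was represented by its brightest probe set over the arrays. All 35 were measured, out of 19938 genes with such a probe set. Expression was measured on 3 Affymetrix arrays, each hybridised with labelled material from total RNA of thymocytes at the double-positive (DP) stage, which carry both CD4 and CD8. The cells came from wild-type C57BL/6 mice aged 5 to 6 weeks with no treatment named, and cohorts of littermates served as replicates. The cells were enriched on beads for CD8 and then for CD4. An array is therefore taken to stand for a cohort, and no second genotype, stage or treatment exists to compare with.

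Remodelers are ATP-driven machines that slide, evict or exchange nucleosomes. BAF and PBAF are assembled from families of paralogous subunits, of which 1 is usually taken per position, so the subunits a cell expresses set which assemblies it can make. ISWI enzymes space nucleosomes, CHD enzymes read histone marks through paired chromodomains, and INO80 family enzymes exchange or reposition histone variant H2A.Z. In the thymus, BAF is known for its part in silencing Cd4 and activating Cd8 during thymocyte development, and its ATPase BRG1 is needed for cells to reach the DP stage.

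The values are log2 expression values as deposited, 1 per probe set and array, with no missing entry. A value counted as detected, or above background, where it passed a limit set per array from 102 probe sets for genes typical of liver, pancreas, muscle and other organs: their 95th percentile. The limits of arrays 1, 2 and 3 were 7.36, 7.46 and 7.38. All 8 markers of the labelled cell type, DP thymocytes, lay above this limit on every array. Cd4 had 11.74 ± 0.15, Cd8a 13.19 ± 0.14 and Rag1 13.51 ± 0.10 (mean ± SD, n = 3 arrays, here and below). None of the 3 measured B cell, 4 myeloid, 4 thymic epithelial and 2 erythroid markers lay above it on all arrays. Krt8, with 7.55 on array 3, exceeded the limit there alone. The cells were enriched by CD8 and CD4, so detection of Cd4 and Cd8a was to be foreseen. Markers of other thymocyte stages were not examined, so these values do not tell DP cells from those. Array 1 stood apart. Xist, transcribed from the inactive X of females, had 11.65, 5.40 and 5.68 on arrays 1, 2 and 3. Of 12 immediate-early genes 11 were highest on array 1, against 34.5% of all genes. With so few arrays, each SD is itself imprecise. A probe set's value also depends on its probes, so each gene was set against background and against itself on the other arrays, not against another gene.

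Of the 35 remodeler genes, 30 exceeded the limit on each of the 3 arrays and 5 on none. Over all genes, 41.3% lay above background on all arrays. The 5 below were Smarcd3, Actl6b, Dpf1, Dpf3 and Smarca1, and each of them has at least 1 paralogue in the list that was above. The median level of the 35 genes was 10.10, against 6.85 for all genes, and that of the 30 was 10.18, against 9.08 for all genes above background. These medians describe the probe sets and do not show that more RNA of the members was present, since probes differ. In sorted but bulk material, fewer cells expressing a gene and less of its RNA per cell cannot be told apart.

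**Figure D1:**
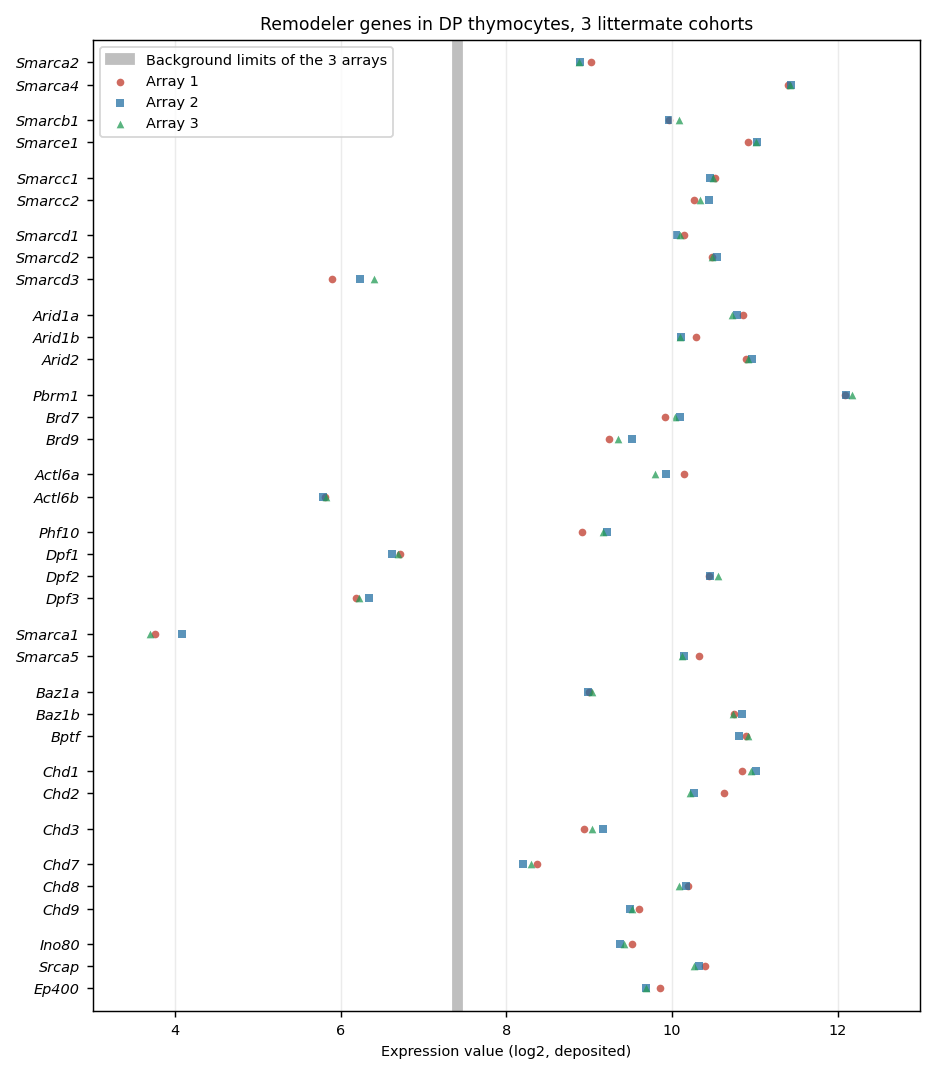
Deposited log2 expression value (horizontal axis) of each of the 35 remodeler genes (rows, grouped by family) on array 1 (circles), array 2 (squares) and array 3 (triangles), with the range of the 3 background limits as a grey band. Of the genes, 30 lie to the right of the band on all arrays and Smarcd3, Actl6b, Dpf1, Dpf3 and Smarca1 to its left, and no gene straddles it.

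Both alternative ATPases of BAF were expressed. Smarca4, which encodes BRG1, had 11.40, 11.44 and 11.43 on arrays 1, 2 and 3, a mean of 11.42 ± 0.02. Smarca2, which encodes BRM, had 9.02, 8.89 and 8.87, a mean of 8.93 ± 0.08. Each value of Smarca2 exceeded its array's limit by at least 1.43 log2 units, and its arrays lay within 0.15 of each other. A lower value of the Smarca2 probe set does not show less BRM mRNA, since the probes differ.

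The core and scaffold subunits were also all above background. Smarcb1, the SNF5 subunit common to BAF and PBAF, had 9.96, 9.96 and 10.08, or 10.00 ± 0.07. For Smarce1, the HMG-box subunit BAF57 that is tied to Cd4 and Cd8 regulation, the values were 10.92, 11.03 and 11.01. The other probe sets that carry its symbol gave 10.82, 10.99 and 10.96, and 10.81, 10.97 and 10.90, so all 3 were lowest on array 1 and highest on array 2. The annotation lists shared transcripts for these probe sets, so they are not independent measurements. The scaffolds Smarcc1 (BAF155, first known in mouse thymocytes as SRG3) and Smarcc2 (BAF170) had 10.49 ± 0.03 and 10.35 ± 0.09.

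Among the BAF60 subunits, which link the complex to transcription factors, Smarcd1 and Smarcd2 were above background and Smarcd3 was not. Smarcd1 had 10.15, 10.05 and 10.09, and Smarcd2 had 10.48, 10.54 and 10.48. Smarcd3, known for its part in heart and muscle, had 5.89, 6.23 and 6.40, below the limit on every array by at least 0.98 log2 units. Stretches of their promoters are shown, as for every family with paralogues on both sides of the limit. Each is the 150 bases before the RefSeq start site (GRCm38.p6), 5′ to 3′ on the gene's strand, with every CpG dinucleotide in capitals. They lie at chr15:99702137-99702286, plus strand (Smarcd1), chr11:106267633-106267782, minus strand (Smarcd2) and chr5:24602003-24602152, minus strand (Smarcd3).
Smarcd1: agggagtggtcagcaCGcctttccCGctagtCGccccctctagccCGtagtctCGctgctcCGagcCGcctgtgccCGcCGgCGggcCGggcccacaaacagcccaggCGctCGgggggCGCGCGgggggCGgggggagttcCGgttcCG
Smarcd2: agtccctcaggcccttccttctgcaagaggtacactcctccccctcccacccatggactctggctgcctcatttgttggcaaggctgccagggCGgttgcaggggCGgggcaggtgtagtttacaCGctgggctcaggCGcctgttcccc
Smarcd3: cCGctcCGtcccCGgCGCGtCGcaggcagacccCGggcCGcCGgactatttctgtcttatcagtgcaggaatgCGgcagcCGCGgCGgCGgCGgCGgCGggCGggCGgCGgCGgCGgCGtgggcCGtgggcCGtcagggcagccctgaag
These stretches hold 19 CpGs for Smarcd1, 4 for Smarcd2 and 25 for Smarcd3. The last, upstream of the gene below background, is thus the richest of them.

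The ARID and bromodomain subunits that distinguish canonical BAF, PBAF and the BRD9-containing assembly were all detected. Arid1a and Arid1b, the alternative DNA-binding subunits of canonical BAF, had 10.79 ± 0.07 and 10.17 ± 0.11. Arid2, the counterpart in PBAF, had 10.92 ± 0.04. Every value of these 3 genes exceeded 10, well clear of the limit. Pbrm1, the polybromo subunit of PBAF, had 12.09, 12.10 and 12.17 in its brightest probe set and 10.58 ± 0.07 and 9.28 ± 0.08 in its others. The level of Pbrm1 therefore depended on the probe set, while all 3 were above background and highest on array 3. Brd7, a bromodomain subunit of PBAF, had 9.91, 10.09 and 10.03. Brd9, which marks the non-canonical assembly, had 9.24, 9.52 and 9.35. All 3 bromodomain genes were lowest on array 1, and under median centring 2 of 3 were. Of all genes 39.3% were lowest there, and this family is 1 of 14 in the list.

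The actin-related subunits showed 1 paralogue on each side of the limit. Actl6a, the BAF53A subunit of proliferating and progenitor cells, had 10.15, 9.93 and 9.79. Actl6b, the BAF53B subunit that replaces it in neurons as they leave the cell cycle, had 5.81, 5.78 and 5.82, a mean of 5.80 ± 0.02. All values of Actl6b lay at least 1.55 log2 units below the limit, and all those of Actl6a at least 2.41 above it. Their promoters, shown as above at chr3:32708396-32708545, plus strand (Actl6a) and chr5:137553396-137553545, plus strand (Actl6b), are close in CpG content.
Actl6a: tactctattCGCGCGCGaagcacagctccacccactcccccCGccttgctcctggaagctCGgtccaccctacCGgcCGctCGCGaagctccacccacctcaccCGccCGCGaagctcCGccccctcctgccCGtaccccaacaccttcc
Actl6b: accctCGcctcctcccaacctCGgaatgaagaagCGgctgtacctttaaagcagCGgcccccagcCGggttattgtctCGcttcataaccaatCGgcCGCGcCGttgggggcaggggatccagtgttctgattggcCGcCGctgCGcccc
The stretches hold 15 CpGs for Actl6a and 13 for Actl6b.

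Of the 4 BAF45 subunits, which carry paired PHD fingers that bind histone tails, Phf10 and Dpf2 were above background and Dpf1 and Dpf3 below it. Dpf2, the widely expressed member in canonical BAF, had 10.45, 10.46 and 10.55, and Phf10, the member in PBAF, had 8.91, 9.22 and 9.17. The neuronal Dpf1 had 6.71, 6.62 and 6.69, and Dpf3, known from neurons, heart and muscle, had 6.18, 6.34 and 6.22. Dpf1 was the undetected member nearest the limit, 0.65 log2 units below it on array 1. The promoters of all 4, shown as above, lie at chr17:14961261-14961410, minus strand (Phf10), chr19:5912872-5913021, minus strand (Dpf2), chr7:29303855-29304004, plus strand (Dpf1) and chr12:83487737-83487886, minus strand (Dpf3).
Phf10: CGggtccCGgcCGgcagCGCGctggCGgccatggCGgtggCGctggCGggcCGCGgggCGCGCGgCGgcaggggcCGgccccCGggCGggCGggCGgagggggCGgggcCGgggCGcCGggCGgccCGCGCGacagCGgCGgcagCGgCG
Dpf2: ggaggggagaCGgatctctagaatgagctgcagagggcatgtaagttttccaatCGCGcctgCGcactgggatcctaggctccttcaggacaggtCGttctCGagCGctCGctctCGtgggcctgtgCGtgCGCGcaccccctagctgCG
Dpf1: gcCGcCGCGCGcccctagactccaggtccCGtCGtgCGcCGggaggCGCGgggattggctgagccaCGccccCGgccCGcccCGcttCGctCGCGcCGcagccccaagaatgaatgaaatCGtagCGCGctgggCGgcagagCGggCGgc
Dpf3: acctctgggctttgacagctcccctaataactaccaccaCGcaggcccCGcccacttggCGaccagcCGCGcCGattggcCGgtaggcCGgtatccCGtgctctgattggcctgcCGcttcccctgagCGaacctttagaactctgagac
They hold 32 CpGs for Phf10 and 13 for Dpf2, which were detected, and 24 for Dpf1 and 11 for Dpf3, which were not. The richest stretch thus belongs to a detected gene, and the next richest to an undetected one.

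The ISWI ATPases also fell on opposite sides. Smarca5, which encodes the SNF2H motor of most ISWI complexes, had 10.33, 10.14 and 10.12. Smarca1, which encodes SNF2L and is best known from brain, had 3.75, 4.08 and 3.69, below the limit on every array by at least 3.38 log2 units. Smarca5 has pseudogene copies, and 3 further probe sets shared with them were not used. The promoter stretches, shown as above, lie at chr8:80739460-80739609, minus strand (Smarca5) and chrX:47892614-47892763, minus strand (Smarca1).
Smarca5: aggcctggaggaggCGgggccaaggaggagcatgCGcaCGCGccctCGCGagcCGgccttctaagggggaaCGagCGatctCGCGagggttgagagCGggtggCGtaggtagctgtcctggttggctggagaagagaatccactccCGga
Smarca1: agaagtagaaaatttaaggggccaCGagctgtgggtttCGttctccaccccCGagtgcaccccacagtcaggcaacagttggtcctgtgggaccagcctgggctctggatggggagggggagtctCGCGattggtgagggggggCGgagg
They hold 14 CpGs for Smarca5 and 6 for Smarca1. The large partners that direct ISWI were all detected. Baz1a, the ACF1 subunit, lay between 8.98 and 9.03 on the 3 arrays (SD 0.03), and Baz1b, the WSTF subunit, had 10.78 ± 0.06. Bptf, the NURF subunit that reads H3K4me3 and is needed for thymocyte maturation, had 10.87 ± 0.06 and, in its other probe set, 10.25 ± 0.02.

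Every CHD gene in the list was called above background, but the call for Chd7 rested on few of its probe sets. Chd1, which binds H3K4me3, had 10.84, 11.02 and 10.95. Its close paralogue Chd2 had 10.63, 10.27 and 10.22. Chd3, the Mi-2α ATPase of NuRD, had 8.94, 9.16 and 9.03; Chd4, its counterpart, is not among the genes described here. Chd8, a regulator of Wnt targets, had 10.15 ± 0.06 and Chd9 had 9.54 ± 0.06.

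Chd7, the gene of CHARGE syndrome, had 8.37, 8.20 and 8.29 in its brightest probe set. It is represented by 30 probe sets with this symbol, whereas 31 of the 35 members have 1 and the other 3 have 2 or 3. Of the 30, 3 exceeded the limit on every array, 1 on some and 26 on none, against 41.9% of all probe sets with 1 symbol above on all arrays. Their means ran from 3.93 to 8.29, with a median of 6.10. The mean over the 30 probe sets was 6.37, 6.19 and 6.24 on arrays 1, 2 and 3, below the limit on each, and with genes represented by such means 29 of the 35 members lay above background. The brightest of 30 values exceeds a limit more easily than a single one, so the call for Chd7 is not comparable with those of the other members. Only 3 genes of all had 30 or more probe sets.

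**Figure D2:**
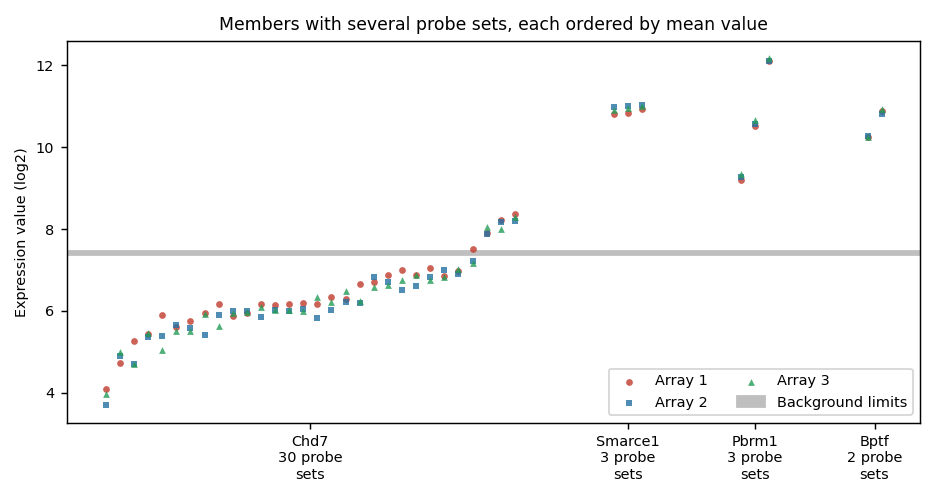
Deposited log2 value (vertical axis) of every probe set of the 4 members that have several, ordered by mean within each gene, with a symbol per array and the background limits as a grey band. Of the 30 Chd7 probe sets, 26 lie below the band on all arrays, while every probe set of Smarce1, Pbrm1 and Bptf lies above it.

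The INO80 family ATPases were all above background. Ino80, the motor of the complex of that name, had 9.52, 9.37 and 9.42. A further 12 probe sets that share the symbol with a ribosomal protein gene were not used. Srcap, which loads H2A.Z into nucleosomes, had 10.40, 10.33 and 10.26, and Ep400, the ATPase of the TIP60 acetyltransferase complex, had 9.85, 9.68 and 9.69.

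Other genes of these machines, taken from fixed lists, gave a like picture. Of 58 measured, 54 were above background on all arrays, 1 on some and 3 on none. Over all genes, 41.3% were above on all arrays. Of 9 further BAF-associated genes 8 were above, among them Bcl7a (9.45 ± 0.07), Bcl7b (9.83 ± 0.12) and Bcl7c (9.83 ± 0.09). Bcl11a, a zinc finger partner of BAF in B cells and erythroid cells, had 6.36, 6.96 and 6.91 and was below. All 12 measured INO80 subunits, including the AAA+ helicase-like Ruvbl1 (9.47 ± 0.09) and Ruvbl2 (9.35 ± 0.18) and the actin-related Actr5 (8.75 ± 0.02), were above. So were all 13 SRCAP and TIP60 subunits, with Actr6 at 7.70 ± 0.14, Znhit1 at 8.51 ± 0.09 and Vps72 at 9.01 ± 0.04. Of 8 ISWI partners 6 were above, including Baz2a (10.47 ± 0.09) and Baz2b (9.39 ± 0.04). Cecr2, a partner known from the germline and the nervous system, had 6.59, 5.83 and 5.89 and was below. Chrac1, a histone-fold subunit, had 7.68, 7.42 and 7.48 and missed the limit on array 2 alone. Of 16 other SNF2 ATPases 15 were above, with Chd1l at 9.15 ± 0.05 and Chd6 at 9.49 ± 0.04, and the neuronal Chd5, at 6.50 ± 0.06, was below.

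The members differed little between the 3 cohorts. Their SDs over the arrays ran from 0.02 for Smarca4 and Actl6b to 0.26 for Smarcd3, with a median of 0.070, against 0.111 for all genes and 0.093 for all genes above background. The highest and lowest array differed by more than 0.5 log2 units for 1 of the 35, Smarcd3, whose values lay below background. Over all genes 7.68% differed by more than this, and 4.47% of genes above background on all arrays did. None of the 30 detected members did. In the limma variance test, which asks whether a probe set varied more than others of its level, 0 members had a Benjamini-Hochberg adjusted p under 0.05 (lowest adjusted p = 0.988) and 0 had an unadjusted p under 0.05. Over all probe sets tested, 0.0207% passed after adjustment and 4.66% had an unadjusted p under 0.05. With 3 arrays this test finds only large shifts, so a miss does not show that a gene was equal in the cohorts.

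**Figure D3:**
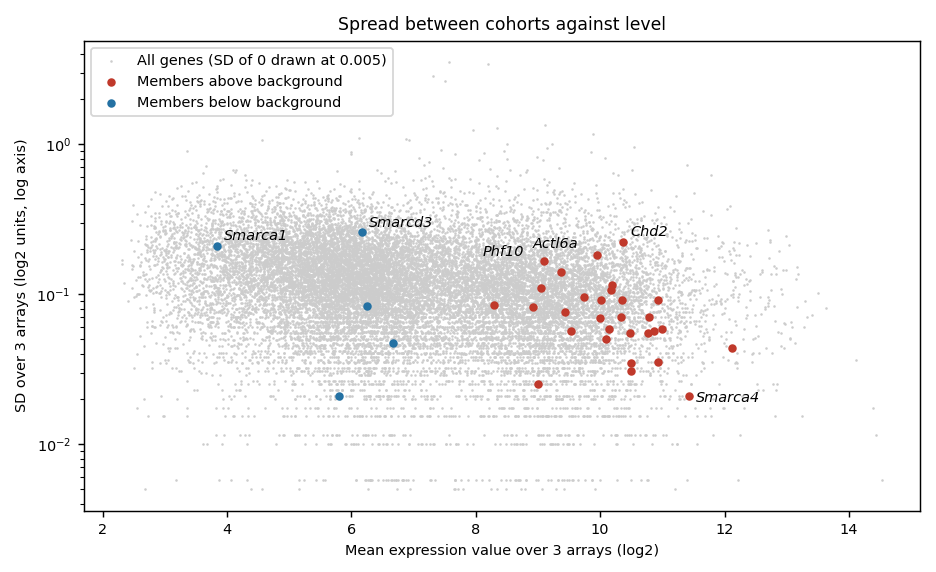
SD over the 3 arrays (vertical axis, log scale, log2 units) against the mean log2 value (horizontal axis) for all 19938 genes (grey, an SD of 0 drawn at 0.005), members above background (red) and members below it (blue). The members lie within the cloud of all genes, with Chd2 the highest in SD among the detected members at 0.22 and Smarcd3 the highest of all at 0.26.

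The largest difference among detected members was that of Chd2, which was highest on array 1. Its value there, 10.63, exceeded the mean of arrays 2 and 3, 10.25, by 0.39 log2 units or 1.31-fold, with arrays 2 and 3 within 0.05 of each other (limma variance test, unadjusted p = 0.0788, adjusted p = 0.988). Of the 12 immediate-early genes, 11 were also highest on array 1, among them Fos at 9.39, 7.86 and 8.27 and Jun at 11.01, 9.65 and 9.56, and the summed log2 levels of the 12 were 112.2, 97.2 and 97.7. Egr2, at 7.24, 7.61 and 7.60, was lowest there, and Ier3 and Atf3 were below background on every array. Of the 8 DP markers 7 were lowest on array 1, against 39.3% of all genes and 41.1% of genes above background on all arrays. Among the 7 were Rag2 at 8.69, 9.51 and 9.54 and Dntt at 12.47, 12.86 and 12.87, while Cd3e was highest on array 1. Xist, the transcript of females, also set array 1 apart, at 11.65 against 5.40 and 5.68. These differences fall on the same array and cannot be told apart. Their part in the array 1 values of Chd2, Actl6a and Phf10 was not tested. Actl6a was likewise highest on array 1, 1.22-fold above the mean of the others, but its arrays 2 and 3 also differed from each other by 0.14 (unadjusted p = 0.142, adjusted p = 0.988). Phf10 was lowest on array 1, by 0.29 log2 units against the others (unadjusted p = 0.186, adjusted p = 0.988).

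The members' shifts between arrays were small and of both signs. Their median deviation from each gene's 3-array mean was -0.003, -0.02 and -0.013 on arrays 1, 2 and 3, against -0.01, 0.007 and 0.00 for all genes. Of the 35, 15 were highest on array 1, 13 on array 2 and 7 on array 3, or 42.9%, 37.1% and 20.0%, where all genes gave 34.5%, 33.0% and 29.0%. Within families, all 3 class III CHD genes (Chd7, Chd8 and Chd9) and all 3 INO80 family ATPases were highest on array 1, under quantile normalization and median centring too. These differences were small, with the highest and lowest array of each of the 6 genes at most 0.17 log2 units apart, and the families were picked out after their values were seen.

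**Figure D4:**
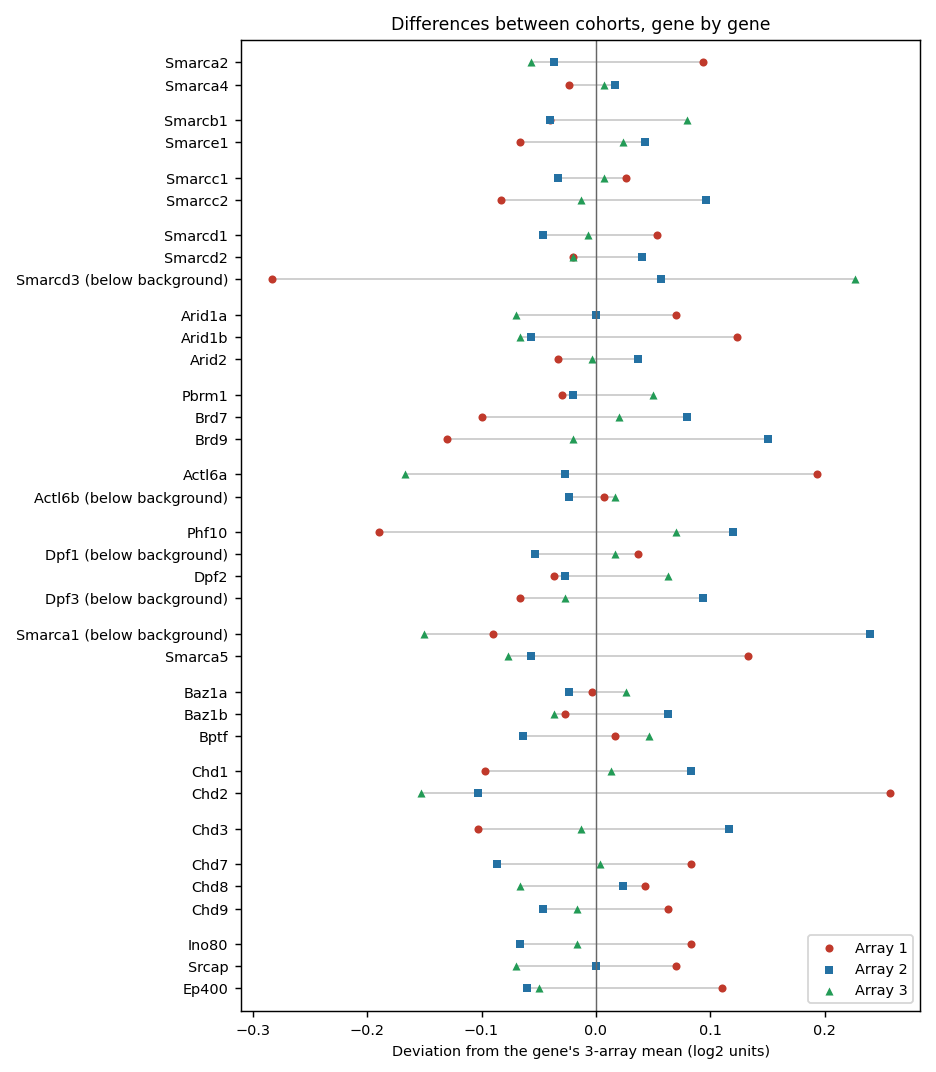
Deviation of each array from the gene's own 3-array mean (horizontal axis, log2 units) for the 35 members (rows), with circles for array 1, squares for array 2 and triangles for array 3 and a grey line from lowest to highest. Chd2 and Actl6a have the largest positive deviations on array 1, 0.26 and 0.19, and Phf10 and Smarcd3 the largest negative ones, -0.19 and -0.28.

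The promoters of the members were compared in a feature that the choice of members did not use, their content of CpG dinucleotides, which most housekeeping promoters hold in number. RefSeq windows of 300 bases, 250 before and 50 after the start, were at hand for 28 of the 35 members, in 31 windows. A window was called CpG-rich where over 50% of its bases were G or C and its CpGs exceeded 0.6 of the number its base composition gives. By this rule 28 of the 31 member windows (90.3%) were CpG-rich, against 33.3% of all 32841 windows, 72.4% of those of genes above background on all arrays and 27.6% of those of genes above on none. The median CpG count was 32 in the member windows, 22 in those of genes above background and 7 in those of genes below.

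The undetected members spanned much of this range. Of the 5, 4 had a CpG-rich window, with 40 CpGs for Smarcd3, 39 for Dpf1, 23 for Actl6b and 17 for Dpf3, where the detected members ran from 1 to 62. The window of Smarca1 had 9 and was not CpG-rich. Among detected members, Smarcd2 had 4 CpGs in its window and 1 of the windows of Chd9 had 1, while the other Chd9 window had 19 and was CpG-rich. These are counts in a sequence and no measure of methylation or of binding.

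**Figure D5:**
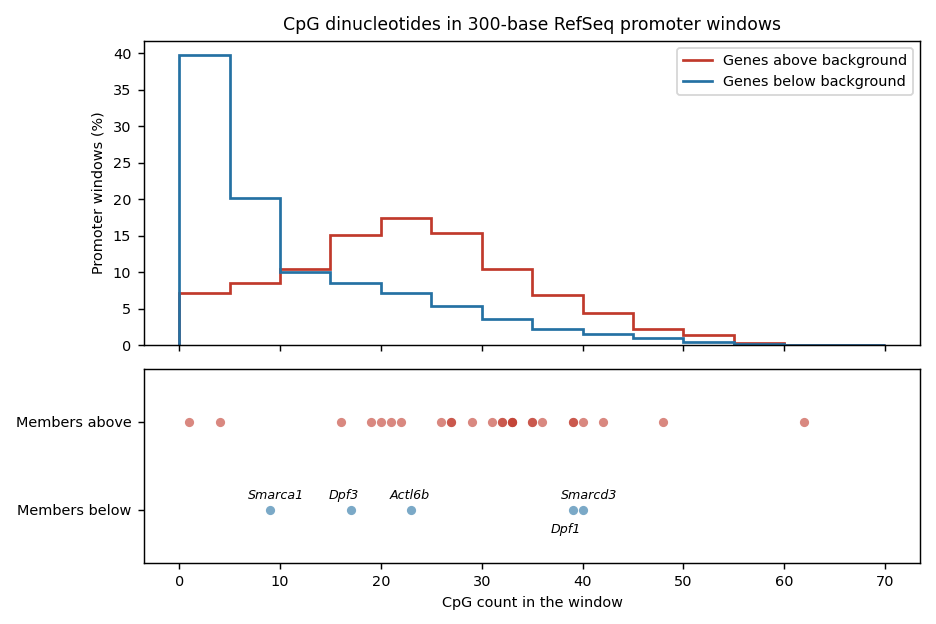
Upper panel: share of 300-base RefSeq promoter windows (vertical axis, percent) by CpG count (horizontal axis, bins of 5) for genes detected on every array (red) and on none (blue). Lower panel: CpG count of each member window, where the undetected Smarcd3 and Dpf1, at 40 and 39, lie above the median of 22 of genes above background and Smarca1, at 9, lies below it.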

How the data were processed

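The values are those of 3 arrays of biotin-labelled material from DP thymocyte RNA, deposited by the authors as log2 expression values, a unit inferred from their range of 1.6 to 14.94. Per the submitters' processing notes affy was used; how the arrays were normalized, and any version or build, is not stated in those sources. The sorted values of the arrays differ by at most 0.15, so a global change in RNA content would not be visible. The labels' protocol text describes fixation before the sort and leaves unsaid whether this applied to the RNA.

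Probe sets were named through the platform annotation. The 6617 probe sets with numbers below the lowest annotated one were left out, which left 28939, of which 21789 have 1 symbol. Background came from 100 of 111 listed genes of other organs. The variance test was an intercept-only fit in limma 3.58.1 (R 4.3.3), with an F test of each probe set's variance against a robust, mean-dependent prior and Benjamini-Hochberg adjustment over all 28939, checked on simulated data. Other steps used Python 3.11.15, numpy 2.4.6, pandas 2.3.3 and matplotlib 3.10.9. The genes named are the 35 members, the first 3 measured of each list of other remodelers with those on the minority side of the limit, the cell type markers, and Xist, Fos and Jun; Egr2, Ier3 and Atf3 fall outside this rule and were chosen after their values were seen. Members and lists were chosen with earlier results of these data known. Promoter sequences are RefSeq's (GRCm38.p6), matched by symbol. Of the members, Chd1, Chd2, Chd3, Chd7, Arid2, Baz1a and Smarce1 had no entry there. Cohorts are separate groups of littermates.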

Additional observations from a re-analysis of the deposited data

How the results depend on the processing

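The count of 30 members above background was the same with the limit at the 90th or 99th percentile of the other-organ probe sets or at their median plus 1. It was also 30 under quantile normalization and median centring, and without any 1 array. The scalings could hardly change it, since the limit is set anew from each array's scaled values. Leaving out an array could hardly do so either, since no member lay above on some arrays only. With the mean of each gene's probe sets the count was 29, without Chd7. The variance test called 0 members, adjusted or not, in each alternative run: a prior that was not robust or had no trend, dim probe sets left out, both scalings, and without any 1 array. The count of members differing by more than 0.5 log2 units, 1 as reported, was 0 under quantile normalization and under median centring, and ran from 0 to 1 when 1 array was left out; the gene is Smarcd3, whose range of 0.51 lies at that limit. The median deviation of the members on array 1, -0.003, was -0.013 under quantile normalization, and became positive, 0.0067, both under median centring and over the detected members alone. On array 2 it was -0.0044 under quantile normalization and -0.03 under median centring, against -0.02 as reported. The sign on array 1 is therefore not settled, and the cause was not tested. Of the recomputed member levels 207 moved by less than 1 SD. Those of Pbrm1, Bptf and Chd7 moved further, all with the mean of probe sets. Most of the 207 could not have moved further. Median centring left each member's mean over the arrays unchanged, and leaving out 1 array cannot shift such a mean by 1 SD. The 31 members with 1 probe set cannot change under the mean of probe sets. Of the 4 members with several, only Smarce1 stayed within 1 SD, so the levels depended on the choice of probe set.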

Other observations

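Motifs were searched in the member windows for ETS, RUNX and E-box factors, which the submitters' design text lists as ChIP targets (Ets1, Runx1, E47), and for the TATA box. The ETS motif CCGGAAGT, on either strand, was in 0 of the 31 windows, against 3.89% of all windows and 9.84% of those of genes above background. The RUNX motif TGTGGT was in 2, those of Arid1b and Brd7, against 16.8% of all windows and 12.2% of those of genes above background. The E-box CAGGTG was in 1, that of Smarcd2, 40 bases before the start, against 20.2% and 17.2%. The TATA motif TATAAA was in the same Smarcd2 window and no other, against 13.6% and 6.23%. The Smarcd2 matches do not overlap, and a match or its absence says only which letters the window holds. The windows also differ in base composition. Median GC content was 67.7% in the member windows, 52.7% in all windows and 61.3% in those of genes above background. The motif shares were not adjusted for this, so they do not show that the members lack such motifs beyond their base composition.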
